A study of Rattus norvegicus with 35 samples.

Results

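The star strands of rat microRNAs were followed in the spinal cord after contusion. A star (passenger) strand is the less abundant arm of a microRNA hairpin, written with an asterisk in the naming of the array. Members were the probe names with a rat entry ending in an asterisk, leaving out miR-9\*, miR-126\*, miR-129\* and the families of miR-297, miR-466, miR-467 and miR-669. This rule gave 55 of the 1766 microRNA names on the array, and these 55 star strands have 52 distinct guide strands there. The samples were 1 cm pieces of spinal cord around the 8th thoracic vertebra (T8) of adult female Wistar rats, 1 animal per array and 5 animals in each of 7 groups. Control animals (CT) had no surgery. Lesion animals (LS1, LS3 and LS7) had a laminectomy and a 200 kdyne contusion at T8 and were sampled 1, 3 and 7 days postoperation (dpo). Sham animals (SH1, SH3 and SH7) had the laminectomy alone and were sampled on the same days. The same CT arrays served every comparison with CT, and each LS group served comparisons with SH, CT and the other LS days, so these comparisons share samples. Values are on the log2 scale of the variance stabilizing normalization (VSN), and a difference of 1 is about 2-fold for bright probes and less than the true fold for dim ones.

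A microRNA gene is transcribed as a hairpin, which Drosha and Dicer cut to a short duplex. One strand of the duplex, the guide, is kept by an Argonaute protein and pairs with messenger RNAs through its seed, the bases near its 5′ end. The other strand, the star, is usually released and degraded, although for some hairpins it is also loaded. Strands with U or A at the 5′ end and a loosely paired 5′ end are favoured by Argonaute. As both strands come from the same precursor, a change in transcription reaches both, while stability and loading act on each strand separately.

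Mature sequences were taken from RefSeq (build GRCr8) for 46 of the 55 star strands, and for both strands of 44 members. Of the 46, 16 lay on the 5p arm and 30 on the 3p arm of the hairpin. The star strands were 20 to 23 bases long. Their first base was A in 15, C in 19, G in 6 and U in 6, whereas the 41 distinct guides began with A in 11, C in 5, G in 2 and U in 23. Among the 44 members with both sequences, no star strand shared its seed with its own guide. The sequences below are those of the pairs on which the results turn, 5′ to 3′, with the seed (bases 2 to 8) in capitals; the members that share a seed are placed together.
miR-21\*: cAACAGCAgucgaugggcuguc
miR-21: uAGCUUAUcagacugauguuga
miR-138\*: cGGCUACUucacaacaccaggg
miR-138: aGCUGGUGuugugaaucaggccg
miR-338\*: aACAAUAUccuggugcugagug
miR-338: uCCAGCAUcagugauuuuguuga
miR-136\*: cAUCAUCGucucaaaugagucu
miR-330\*: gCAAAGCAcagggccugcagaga
miR-330: uCUCUGGGccugugucuuaggc
miR-204\*: gCUGGGAAggcaaagggacguu
miR-204: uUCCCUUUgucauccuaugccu
miR-872\*: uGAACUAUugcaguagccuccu
miR-872: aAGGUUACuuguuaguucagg
miR-181a\*: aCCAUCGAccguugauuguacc
miR-379\*: cUAUGUAAcaugguccacuaac
let-7e\*: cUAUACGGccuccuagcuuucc
let-7e: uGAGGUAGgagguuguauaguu
miR-24-1\*: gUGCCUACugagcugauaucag
miR-24-2\*: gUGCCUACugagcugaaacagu
miR-30c-1\*: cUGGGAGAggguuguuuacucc
miR-30c-2\*: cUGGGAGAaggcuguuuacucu
miR-99a\*: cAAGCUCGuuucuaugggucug
miR-99b\*: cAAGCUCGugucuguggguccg
In this build the star strand of miR-21 lies at chr10:71902615-71902636 on the minus strand, and its guide at chr10:71902653-71902674. The star strands of miR-138 (chr8:131178494-131178515, plus strand), miR-338 (chr10:105796381-105796402, minus strand) and miR-136 (chr6:134331383-134331404, plus strand) fell furthest relative to other microRNAs at 7 dpo, together with miR-330\* (chr1:87961266-87961288, plus strand). There were 6 members on chromosome 6 in the imprinted Dlk1-Dio3 cluster, among them miR-136\* and miR-379\* (chr6:134543496-134543517, plus strand). Each of these intervals is the mature strand within a microRNA hairpin.

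Among the 46 star strands with a sequence, seed sharing was limited to 3 groups of 2, 6 members in all. Members without a sequence, miR-30d\* and miR-30e\* among them, were not compared. miR-24-1\* and miR-24-2\* come from separate hairpins with 1 guide, miR-24, agree over their first 16 bases and differ at 5 of 22. Their values ran together over the 35 arrays (Pearson r 0.92, a description only, as the probes share arrays and could cross-hybridize). miR-99a\* and miR-99b\* agree over the first 9 bases and differ at 3, yet miR-99b\* was detected on 33 arrays and miR-99a\* on 7 (r -0.5). For miR-30c-1\* and miR-30c-2\*, which agree over the first 8 bases, r was 0.02, with detection on 7 and 12 arrays.

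Detection was set against 28 negative-control spots of each array: a share of spots above 0.5 had to lie over their mean plus 2 SD. Names that met this in 3 or more animals of the same group counted as detected in the study. By this rule 35 of the 55 star strands were detected (63.6%), compared with 49 of their 52 guides (94.2%), 224 of 291 rat names without an asterisk (77.0%) and 812 of all 1766 names (46.0%). Only 5 star strands were detected on every array: miR-138\*, miR-140\*, miR-338\*, miR-24-1\* and miR-30e\*. By contrast 10 were detected on none: let-7i\*, miR-1\*, miR-101a\*, miR-193\*, miR-20a\*, miR-27a\*, miR-322\*, miR-378\*, miR-543\* and miR-7a\*. The other 10 of the 20 that were not detected in the study exceeded the limit on some arrays only. Of the 35 detected, 24 also passed the filter on variation (interquartile range above 0.5 over the 35 arrays) and were tested.

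The number of star strands detected in at least 3 animals was 26 in CT, 31 in SH1, 30 in SH3 and 26 in SH7, against 30 in LS1, 23 in LS3 and 12 in LS7. Per array, the median number was 24 in CT (range 20 to 43), 26 in SH7 (21 to 39) and 12 in LS7 (9 to 28), and the groups overlapped. The guides of the same members had medians of 48 in CT, 48 in SH7 and 43 in LS7 (36 to 49). Over all names the medians were 633, 589 and 376. The lowest value detected on an array ranged from 4.66 to 5.71 in SH7 and from 4.90 to 6.49 in LS7, so a dim star strand needed a higher value to be detected on some LS7 arrays.

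**Figure D1:**
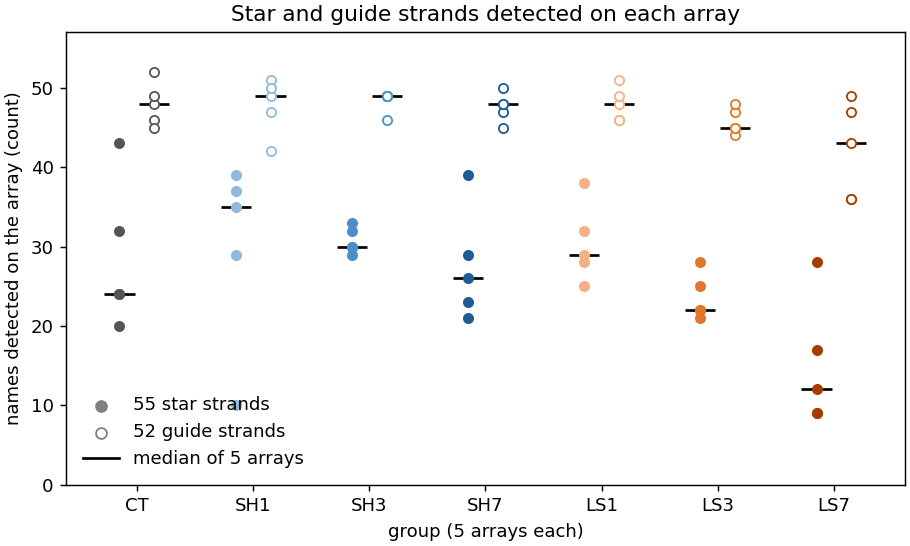
Number of the 55 star strands and of their 52 guides detected on each array (y axis, count) in the 7 groups of 5 arrays (x axis), 1 point per array. In LS7 the star counts sit between 9 and 28 and the guide counts between 36 and 49.

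Several arrays stood apart before any comparison. The first principal component of all tested names held 51.8% of the variance, and on it LS7 replicates 2 to 5 lay at 23.03 to 49.57 and LS3 replicate 2 at 36.46, while all other arrays, LS7 replicate 1 included (5.71), lay between -18.94 and 8.51. The median microRNA signal was 6.57 to 24.4 times the SD of the negative controls, lowest in LS7 replicate 3. On SH1 replicate 3 only 10 star strands were detected, with a lowest detected value of 7.37. For LS7 replicate 4 and SH7 replicate 1 the deposited table did not follow the scan in order as on the other 33 arrays (Spearman 0.912 and 0.938 across spots), and results were recomputed without both. Arrays were scanned on 13 days, of which LS7 and SH7 shared 1. The files hold 1 array per animal, so p-values measure the spread between animals and arrays together.

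The 8 members with the highest mean in CT were chosen for description. miR-138\*, whose guide is enriched in neurons, had 10.09, 9.47, 9.42, 9.33 and 9.60 in the 5 CT animals. The other 7 were miR-140\*, miR-338\*, miR-204\*, miR-24-1\*, miR-136\*, miR-30e\* and miR-872\*, and their single CT values lay between 7.61 and 9.65. Levels of different probes are not compared here, since each probe has its own brightness. The probe names of 4 members also carry newer arm names (miR-140-3p, miR-338-5p, miR-151-3p and miR-296-5p) in other species. For 4 members the star was detected on more arrays than its guide: miR-363\* (34 against 11), miR-872\* (33 against 23), miR-296\* (16 against 6) and miR-34c\* (31 against 30).

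**Figure D2:**
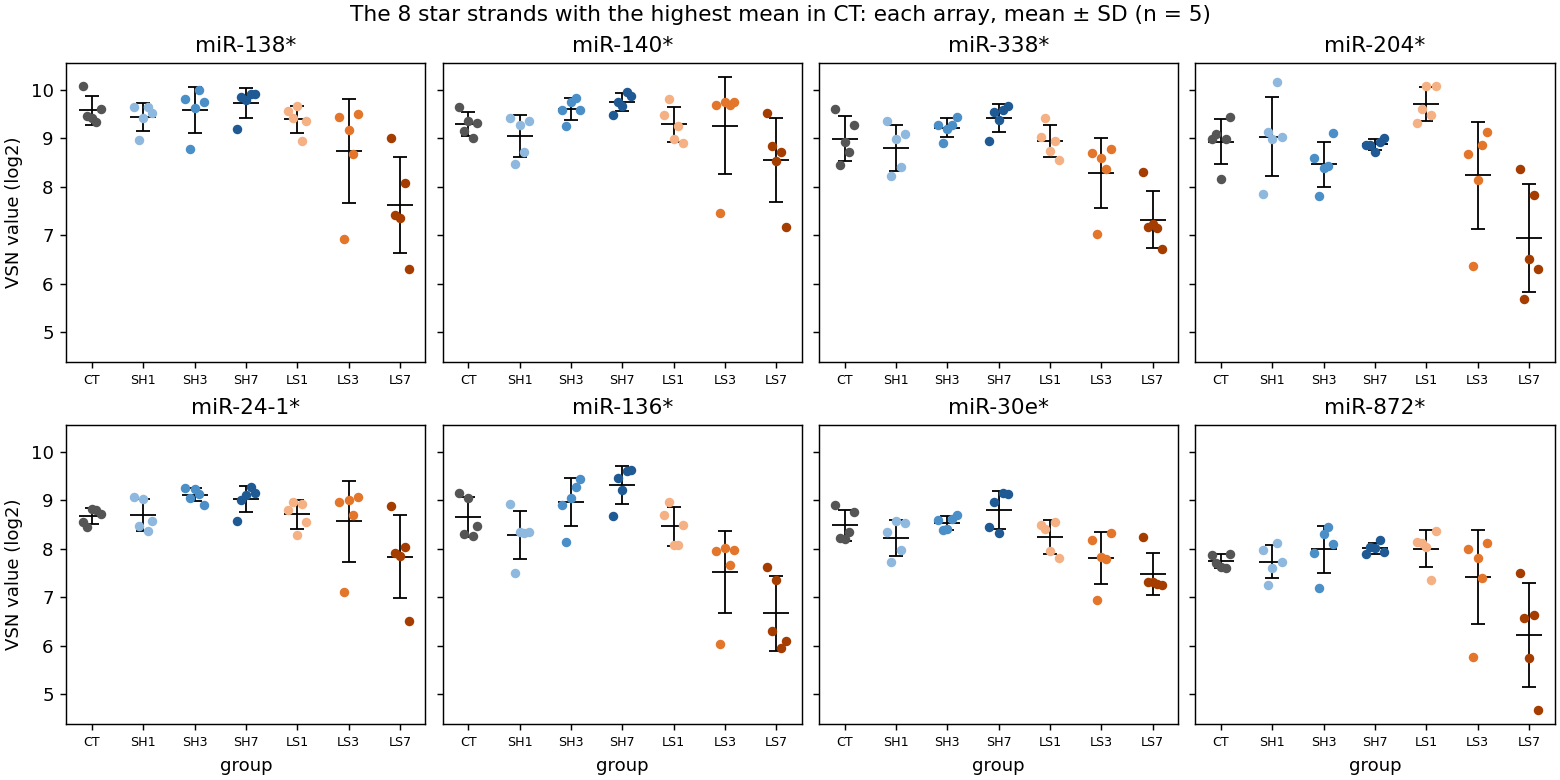
Values (y axis, log2 VSN scale) of the 8 star strands with the highest mean in CT on each array, by group (x axis), with mean and SD (n = 5). Most LS7 values lie below those of SH7, and LS3 replicate 2 lies below the other LS3 arrays.

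The comparison of LS7 with SH7 asks what contusion adds to laminectomy at 7 dpo. miR-136\*, miR-138\* and miR-338\* were lower in LS7 under all 8 scalings tried, but most microRNAs on the array were called lower too. Of the 714 names tested, 59.2% were called lower (limma, Benjamini-Hochberg adjusted p under 0.05) and 4.34% higher. Of the 24 star strands tested, 16 were called lower (66.7%) and 1 higher (4.17%), a share near that of all names. The median change was -0.91 over the 35 detected star strands and -1.04 over the 812 detected names, and 17 of the 35 lay below the latter. As 11 of the 35 were detected in no LS7 animal, the median was also taken with these at their bound, or at 0 where there was none, which gave -0.33. All names were not treated in this way, so -0.33 and -1.04 are not directly comparable. The median over all names depends on the scaling: over 8 scalings it ranged from -1.04 to 1.62, being -0.25 in the deposited values and 0.36 with spike-in scaling. With it the split of calls moved. Under the 75th percentile of names detected on all arrays, 22 of 24 star strands tested were called higher and 0 lower, beside 74.5% of 685 names higher. Under the 75th percentile of all names it was 13 higher and 10 lower of 26, beside 37.1% and 40.0% of 650 names, and under spike-in scaling 12 and 4 of 35, beside 263 (32.4%) and 132 of 812 names. For the members described singly, the change in LS7 against SH7 is also given relative to the median of all names. As the tissue was a piece of whole cord, fewer cells of a type and less RNA per cell cannot be told apart.

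The star strands with a change relative to all names in the same direction under all 8 scalings were 9 below (let-7b\*, miR-136\*, miR-138\*, miR-204\*, miR-330\*, miR-338\*, miR-34c\*, miR-382\* and miR-872\*) and 8 above (let-7d\*, miR-106b\*, miR-21\*, miR-23a\*, miR-296\*, miR-29a\*, miR-363\* and miR-99b\*). In CT the means of those below ranged from 6.45 to 9.58, and of those above from 5.09 to 6.65, nearer the detection limit. Of those above, miR-21\* was detected in 0 LS7 animals, miR-106b\*, miR-23a\* and miR-296\* in 1 and let-7d\* in 2. Of those below, miR-382\* was detected in 0 and let-7b\*, miR-136\*, miR-330\* and miR-34c\* in 2. The part of the detection limit in these directions was not tested. The absolute direction of LS7 minus SH7 held under all 8 scalings for miR-136\*, miR-138\* and miR-338\*, each of which was also called lower under 7 of the 8 when all 812 detected names were tested. miR-330\*, miR-204\* and miR-872\* turned only under scaling to the 75th percentile of the names detected on all arrays.

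miR-136\* comes from the Dlk1-Dio3 cluster, which is expressed from the maternal chromosome and is active in neurons. Its values were 7.62, 6.31, 7.36, 5.95 and 6.09 in LS7, and 8.67, 9.46, 9.21, 9.61 and 9.62 in SH7. All LS7 animals lay below all SH7 animals, and the change was -2.65 (SE 0.38, adjusted p 0.00019), or -1.61 relative to all names. It was detected in 2 of 5 LS7 animals and in all SH7 animals.

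miR-330\* is the star of a microRNA listed here with the neuronal ones. It read 6.68, 5.49, 5.93, 5.07 and 4.38 in LS7 and 7.37, 8.08, 8.28, 7.82 and 7.77 in SH7. Its LS7 and SH7 values were separate, but only 2 of the 5 LS7 values were above background, against all 5 in SH7, so the size of the measured change of -2.36 (SE 0.40, adjusted p 0.00037; relative -1.32) rests in part on values under the limit. The relative change ranged from -1.32 to -0.62 over the 8 scalings, while its absolute change turned to 0.55 under the 75th percentile of names detected on all arrays.

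miR-338\* is the partner of miR-338, a microRNA that promotes oligodendrocyte maturation. Its LS7 values were 8.31, 7.18, 7.23, 7.15 and 6.72, and its SH7 values 8.94, 9.54, 9.37, 9.59 and 9.67. The highest LS7 animal, replicate 1, stayed below the lowest SH7 animal, and the change was -2.10 (SE 0.34, adjusted p 0.00032; relative -1.06).

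miR-138\* had 9.0, 7.42, 7.36, 8.07 and 6.30 in LS7 and 9.19, 9.86, 9.79, 9.91 and 9.92 in SH7. The groups did not overlap, with LS7 replicate 1 just under the lowest SH7 animal, and the change was -2.10 (SE 0.42, adjusted p 0.00086; relative -1.06). It was detected on all arrays of both groups.

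miR-204\*, whose guide is abundant in choroid plexus and retinal pigment epithelium, spread widely within LS7. The LS7 values were 8.36, 5.68, 6.52, 7.84 and 6.31, and the SH7 values 8.87, 8.87, 8.71, 8.93 and 9.0. The change was -1.94 (SE 0.44, adjusted p 0.0017; relative -0.90), and it turned to 0.23 under the 75th percentile of names detected on all arrays. LS7 replicates 1 and 4 lay closest to the sham animals.

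miR-872\* had 7.51, 6.58, 5.74, 6.64 and 4.67 in LS7 and 7.90, 8.03, 8.01, 8.18 and 7.93 in SH7. The groups were separate and the change was -1.78 (SE 0.43, adjusted p 0.0023; relative -0.74), turning to 0.63 under the 75th percentile of names detected on all arrays.

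Among the remaining 3 of these 8 members the falls were close to that of all names. miR-30e\*, encoded with its guide in an intron of Nfyc, read 8.25, 7.32, 7.31, 7.28 and 7.25 in LS7 and 8.45, 8.96, 8.32, 9.16 and 9.12 in SH7 (change -1.32, SE 0.33, adjusted p 0.0028; relative -0.28). miR-140\*, from a hairpin best known in cartilage, read 9.52, 8.84, 8.54, 8.71 and 7.17 in LS7 and 9.49, 9.76, 9.67, 9.96 and 9.87 in SH7 (change -1.19, SE 0.39, adjusted p 0.013; relative -0.15). miR-24-1\* read 8.88, 7.92, 7.85, 8.03 and 6.50 in LS7 and 8.57, 9.0, 9.11, 9.28 and 9.16 in SH7 (change -1.19, SE 0.39, adjusted p 0.014; relative -0.15). LS7 replicate 1 overlapped the sham range for miR-140\* and miR-24-1\* but not for miR-30e\*. The sign of all 3 changes turned under normexp with quantile normalization, under the 75th percentile of names detected on all arrays and in the ratio to the red channel.

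Of the other members called lower, 4 were detected in no LS7 animal. miR-382\*, of the Dlk1-Dio3 cluster, lay between 3.60 and 5.74 in LS7, where no animal passed the detection limit, and between 5.67 and 6.86 in SH7, where all 5 did. It was thus at least 1.49-fold lower, a bound taken against the lowest detected value of each LS7 array. Its adjusted p of 0.0016 is that of limma on the measured values. The sign of its change turned under the 75th percentile of names detected on all arrays and spike-in scaling. miR-379\*, miR-218\* and miR-196a\* were the other 3, and their bounds lay under 1, so they were called lower with no size given (adjusted p 0.00065, 0.0027 and 0.021). The directions of all 3 turned under both 75th percentile scalings and under spike-in scaling. For miR-181a\* (5.85, 5.15, 5.15, 5.31 and 4.56 in LS7; 5.54, 6.17, 6.46, 6.88 and 6.67 in SH7) only 1 LS7 animal passed the detection limit against 5 in SH7, and the groups overlapped. Its measured change was -1.14 (SE 0.35, adjusted p 0.0098; relative -0.10), and it turned under the same 3 scalings. let-7b\* (-1.13, adjusted p 0.0042; relative -0.09; detected in 2 LS7 animals) and miR-24-2\* (-0.91, adjusted p 0.032; relative 0.13) changed about as much as all names did, and both turned under the 75th percentile of names detected on all arrays, miR-24-2\* also under normexp with quantile normalization and in the ratio to the red channel.

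miR-296\* was the only member called higher in LS7 than in SH7. Its values were 5.69, 6.09, 6.13, 5.47 and 5.82 in LS7 and 4.93, 5.52, 5.24, 5.18 and 4.72 in SH7, with a change of 0.72 (SE 0.31, adjusted p 0.047; relative 1.76). The groups overlapped by 1 animal, and it was detected in only 1 LS7 and 2 SH7 animals, so most of these values lie at or under the detection limit. Its call held in only 2 of the 10 fits without 1 array, those without LS7 replicate 1 and without LS7 replicate 4. miR-363\*, detected in all 10 animals, changed by 0.33 (adjusted p 0.41), which was 1.37 above all names, and the sign of both was positive under all 8 scalings.

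**Figure D3:**
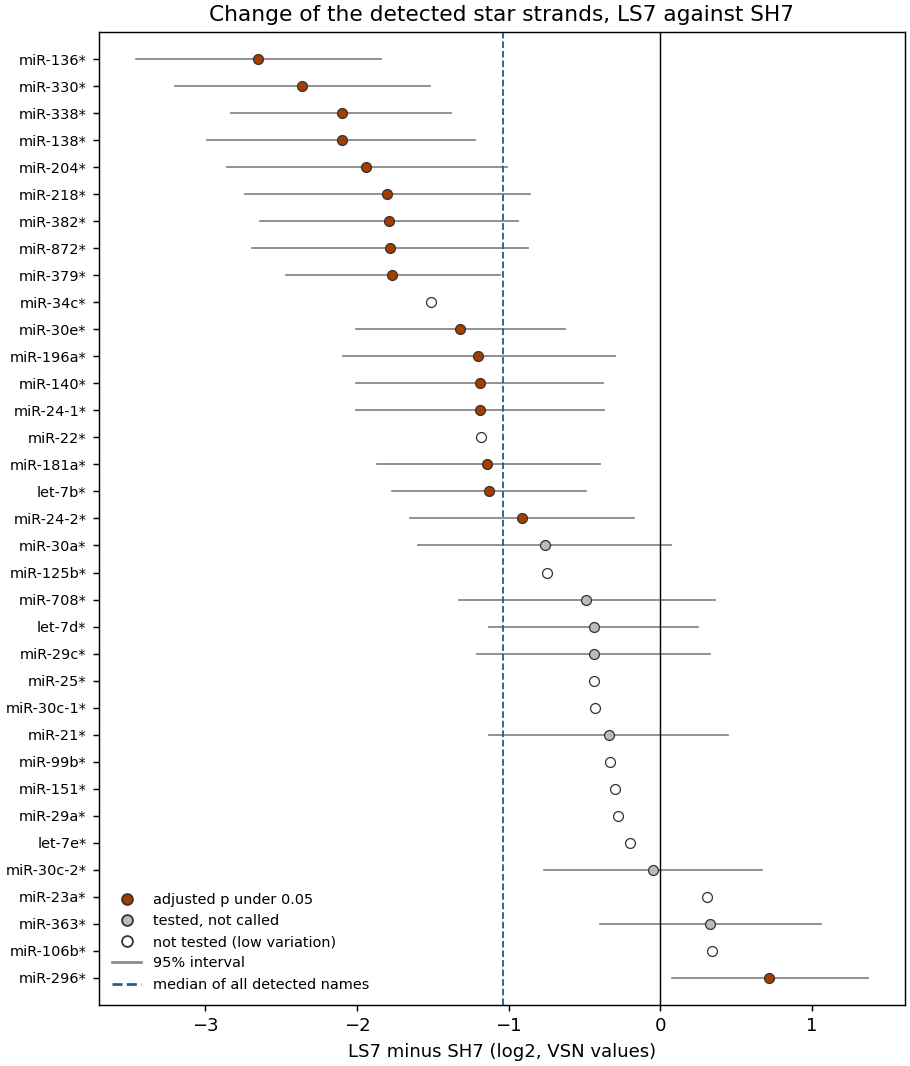
Change of the 35 detected star strands between LS7 and SH7 (x axis, log2 VSN values), 1 row per member, with 95% intervals for the 24 tested, and the median of all 812 detected names drawn as a line at -1.04. miR-136\* and miR-330\*, each detected in 2 LS7 animals, are drawn furthest below the line, and miR-106b\*, miR-363\*, miR-23a\* and miR-296\* furthest above it. miR-106b\*, miR-23a\* and miR-296\* were each detected in 1 LS7 animal.

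By the function of the guide, the star strands of neuronal microRNAs (6 members, 4 detected) were called lower in LS7 than in SH7 in 3 of 3 tested, and so were the Dlk1-Dio3 stars (6 members, 3 detected) in 3 of 3. In each of these lists 2 members were detected in no LS7 animal, and with these at their bound, or at 0 where there was none, the medians were -1.05 and -0.57. The 1 oligodendrocyte star, miR-338\*, had -2.10. The stars of the miR-23/24/27 and miR-26 families had -0.91 (2 of 2 tested lower) and the 3 injury and inflammation stars -1.14 (1 of 2 lower). Nearer to 0 were the let-7 stars at -0.44 (1 of 2 tested lower), the miR-30 stars at -0.02 with 2 such members treated likewise (1 of 3 lower) and the miR-29 stars at -0.36 (0 of 1). The stars of the cluster of miR-17 and its paralogues had 0.33 (3 detected, 1 tested and not called). Among the 17 other members, 4 of 6 tested were called lower and 1 higher. Over all names the median was -1.04, taken without bounds, and 59.2% of those tested were called lower, so these counts are descriptions. Also taken without bounds, the neuronal, Dlk1-Dio3 and miR-30 medians were -1.95, -1.79 and -0.60, resting in part on values under the limit. Of the neuronal and Dlk1-Dio3 stars called lower, miR-218\*, miR-379\*, miR-382\* and miR-330\* turned sign under 1 or more scalings, while miR-136\* and miR-138\* did not.

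Guides that mark cell types also changed. All 4 neuronal guides were called lower in LS7 than in SH7 (miR-124 by -2.64, miR-128 by -2.31, miR-138 by -1.77 and miR-218 by -2.62), and their summed level ranged from 14.12 to 15.05 in SH7 and from 10.92 to 13.21 in LS7. The oligodendrocyte guide miR-219-5p changed by -2.72 (12.57 to 13.74 in SH7 and 9.24 to 12.04 in LS7). Of the 5 immune guides 0 were called, with sums of 11.54 to 12.85 in SH7 and 10.58 to 12.63 in LS7. Both erythrocyte guides (miR-451 by -2.35 and miR-144 by -3.26; sums 12.40 to 14.55 against 9.31 to 12.88) and 3 of 4 muscle guides (8.66 to 9.07 against 6.99 to 7.94) were called lower. Their part in the changes of the star strands was not tested. miR-124, the defining neuronal microRNA of the tissue, was detected on all 35 arrays.

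LS7 replicate 5 and SH7 replicate 3 were scanned on the same day, the only such day for these groups. Between these 2 arrays the change was -3.12 for miR-136\*, -3.49 for miR-138\*, -2.65 for miR-338\* and -3.90 for miR-330\*, with a median of -1.07 over the 35 star strands and -1.52 over all names. With scan day as a fixed block, the change rests on this pair alone with 1 residual degree of freedom, and 26.8% of all names were called lower and 0% higher. The calls of miR-136\*, miR-138\*, miR-330\*, miR-338\* and miR-872\* held there (adjusted p from 0.036 to 0.049), and those of the other 11 members called lower and of miR-296\* were lost.

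Against CT, which had no surgery, LS7 had 51.4% of all names called lower and 1.68% higher, and 13 of the 24 star strands lower (54.2%) and 0 higher. Under the same 3 scalings the split was 20 higher and 0 lower, 13 and 6, and 17 and 3, beside 65.7%, 36.0% and 42.4% of all names called higher. Those with the largest changes in the VSN values were miR-330\*, miR-136\*, miR-204\* and miR-138\*. miR-330\* (CT values 7.60, 7.43, 7.80, 7.69 and 7.68) changed by -2.13 (SE 0.40, adjusted p 0.0018), and no LS7 animal reached the CT range. miR-136\* (CT values 9.15, 8.31, 9.04, 8.27 and 8.48) changed by -1.99 (SE 0.40, adjusted p 0.0020), again without overlap. miR-204\* changed by -1.99 (SE 0.47, adjusted p 0.0041) with overlap, since CT replicate 3 read 8.17 against 8.36 in LS7 replicate 1. miR-138\* changed by -1.95 (SE 0.43, adjusted p 0.0028) and miR-338\* (CT values 9.61, 8.44, 8.93, 8.72 and 9.28) by -1.68 (SE 0.37, adjusted p 0.0028), both without overlap. The signs of miR-136\*, miR-138\*, miR-204\* and miR-338\* held under all 8 scalings, and that of miR-330\* turned under the 75th percentile of names detected on all arrays. miR-872\* changed by -1.52 (SE 0.44, adjusted p 0.011), turning under the same scaling. miR-382\* was at least 1.45-fold lower (adjusted p 0.0031 on the measured values), turning under that and spike-in scaling. The median of all names was -0.88 in this comparison. With scan day as a fixed block (3 shared days), the calls of miR-136\*, miR-138\*, miR-330\*, miR-338\* and miR-382\* held and the other 8 were lost, where 23.2% of all names were called lower.

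The sham groups served as the background of surgery. In SH1, SH3 and SH7 against CT 0 of 714 names were called by limma, so 0 star strands were called either (0% of all names). At an unadjusted p under 0.05, 6, 34 and 79 of all names were higher and 0, 2 and 5 lower, and among the star strands 1, 1 and 2 were higher and 0 lower.

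At 3 dpo, LS3 had 4.90% of all names called lower than SH3 and 0.28% higher, and 2 of the 24 star strands lower (8.33%). miR-181a\*, whose guide acts in lymphocyte signalling and is expressed in brain, read 5.29, 4.69, 5.82, 5.56 and 5.51 in LS3 and 6.59, 7.18, 6.29, 6.61 and 6.54 in SH3. The groups did not overlap, with a change of -1.27 (SE 0.32, adjusted p 0.044) that kept its sign under all 8 scalings, though it was detected in only 2 LS3 animals against 5 in SH3. miR-379\* read 4.06, 2.95, 4.07, 4.60 and 4.25 in LS3, where it was detected in no animal, and 5.70, 5.29, 5.75, 4.77 and 5.01 in SH3, where it was detected in 3. It was called lower (adjusted p 0.046), but as no LS3 value was above background no size is given, and its direction turned under both 75th percentile scalings and spike-in scaling. Each of these calls was lost in 9 of the 10 fits without 1 array and held only without LS3 replicate 2, and without SH3 replicate 2 the 1 star strand called was miR-136\*.

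Some of the star strands with large falls at 7 dpo had values in the same direction at 3 dpo without passing the threshold. miR-136\* read 7.95, 6.03, 8.01, 7.66 and 7.98 in LS3 and 8.90, 8.15, 9.04, 9.27 and 9.43 in SH3, a difference of -1.43 (SE 0.42, adjusted p 0.056) between groups that did not overlap. The difference was -1.14 for miR-330\* (adjusted p 0.16) and -0.93 for miR-338\* (adjusted p 0.17). LS3 replicate 2 weighed on both: it read 4.82 for miR-330\* and 7.03 for miR-338\*. The other LS3 animals lay between 6.50 and 7.24 and between 8.36 and 8.78. By contrast miR-204\*, which also fell at 7 dpo, had means of 8.24 in LS3 and 8.46 in SH3. Its LS3 replicate 2 read 6.36, and the other LS3 animals 8.14 to 9.13 against 7.81 to 9.11 in SH3. The median over the 35 star strands was -0.55 against -0.25 over all names, and 25 of the 35 lay below the latter. For 15 members, among them miR-136\*, miR-138\*, miR-330\* and miR-338\*, the change relative to all names was below 0 under all 8 scalings. For 2, miR-21\* and miR-23a\*, it was above 0 under all 8. No such count over all names is given, so these are descriptions. On the 1 scan day that both groups share (LS3 replicate 4 and SH3 replicate 1) miR-181a\* differed by -1.03. Against CT, 0 star strands were called in LS3, where 0.28% of all names were called higher and 0% lower; at an unadjusted p under 0.05, 30 names including 1 star strand were higher and 72 including 4 star strands lower. Without LS3 replicate 2, 1 star strand was called higher and 1 lower. The share of all names called in that fit is not given, so these counts are a description only.

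The injury effect itself was compared between days in 1 limma fit over the 7 groups. The effect at 7 dpo (LS7 minus SH7) was lower than that at 1 dpo (LS1 minus SH1) for 57.6% of all names and for 15 of the 24 star strands (62.5%), and higher for 2.66% of names and 0 star strands. Compared with 3 dpo it was lower for 3.36% of names and 0 star strands. Between 3 and 1 dpo 0 names were called, while at an unadjusted p under 0.05, 83 names, 6 of them star strands, were lower and 2 higher.

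At 1 dpo, miR-21\* was the star strand that rose in LS1. Its guide is one of the microRNAs best known to rise after tissue injury and in inflammation. The star read 7.99, 7.62, 8.68, 6.74 and 8.63 in LS1, against 4.78, 5.39, 5.41, 4.62 and 5.26 in CT. All LS1 animals exceeded all CT animals, with detection in 5 and 3 animals, and the change was 2.84 (SE 0.36, adjusted p 0.00016). Of all names 7.56% were called higher in LS1 than in CT and 0% lower, and miR-21\* was the 1 star strand of 24 called (4.17%). It was called higher under all 8 scalings when all 812 detected names were tested. Leaving out each array in turn left the change between 2.65 and 3.14, and the 1 pair scanned on a shared day (LS1 replicate 3 and CT replicate 1) differed by 3.89. Of the 5 immune guides, miR-223 (2.41) and miR-142-3p (1.32) were also called higher in LS1 than in CT and the other 3 were not called, with summed levels of 10.73 to 11.57 in CT, 10.73 to 11.98 in SH1 and 11.53 to 12.77 in LS1. The part of immune cells in the rise of miR-21\* was not tested.

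Against SH1 the rise of miR-21\* was not called. The SH1 values were 5.12, 6.69, 5.14, 9.06 and 6.24, so SH1 replicate 4 lay above every LS1 animal while the other 4 lay below all of them. The change was 1.48 (SE 0.65, adjusted p 0.49), and without SH1 replicate 4 it was 2.13 (SE 0.44, adjusted p 0.0087). No name at all was called in LS1 against SH1 by limma (0%), where 68 names were higher and 4 lower at an unadjusted p under 0.05, 1 and 0 of them star strands. miR-204\* in LS1 read 9.31, 9.60, 10.08, 9.49 and 10.08 against 8.98, 9.09, 8.17, 8.98 and 9.45 in CT, a difference of 0.78 (SE 0.29, adjusted p 0.13), positive under all 8 scalings, and the groups overlapped.

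At the later days miR-21\* was lower than in LS1. It read 6.48, 4.73, 5.99, 6.34 and 6.28 in LS3 and 5.77, 4.93, 4.06, 5.95 and 4.93 in LS7, where it was detected in 4 and 0 animals. In LS3, 4 of the 5 animals lay above every CT animal and replicate 2 did not, and the difference of 0.87 from CT was not called (SE 0.38, adjusted p 0.28), nor was that of 0.68 from SH3 (SE 0.48, adjusted p 0.49). The change from LS1 to LS3 was -1.97 (SE 0.44, adjusted p 0.024), where 3.92% of all names were called lower and 0.14% higher, and miR-21\* was the 1 star strand called (2 without LS3 replicate 2). This call was lost when LS1 replicate 1, 2, 3 or 5 or LS3 replicate 3 was left out, with changes from -2.26 to -1.66. In LS7 it was at least 4.06-fold lower than in LS1 (adjusted p 0.00014 on the measured values). However, under the 75th percentile of names detected on all arrays its sign turned (0.03). In that comparison 62.7% of all names were called lower and 4.62% higher, and 11 star strands lower (45.8%) and 1, miR-363\*, higher (0.97, SE 0.35, adjusted p 0.023; lost without LS1 replicate 5 or LS7 replicate 2). All 12 of these calls were lost with scan day as a fixed block (1 shared day), where 0.56% of all names were called lower, and miR-21\* there had -2.91 (SE 0.60, adjusted p 0.10). From LS3 to LS7, 0.84% of names and 0 star strands were called lower, and 0% higher, but without LS3 replicate 2, 47.3% of names and 12 of 24 star strands were called lower.

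**Figure D4:**
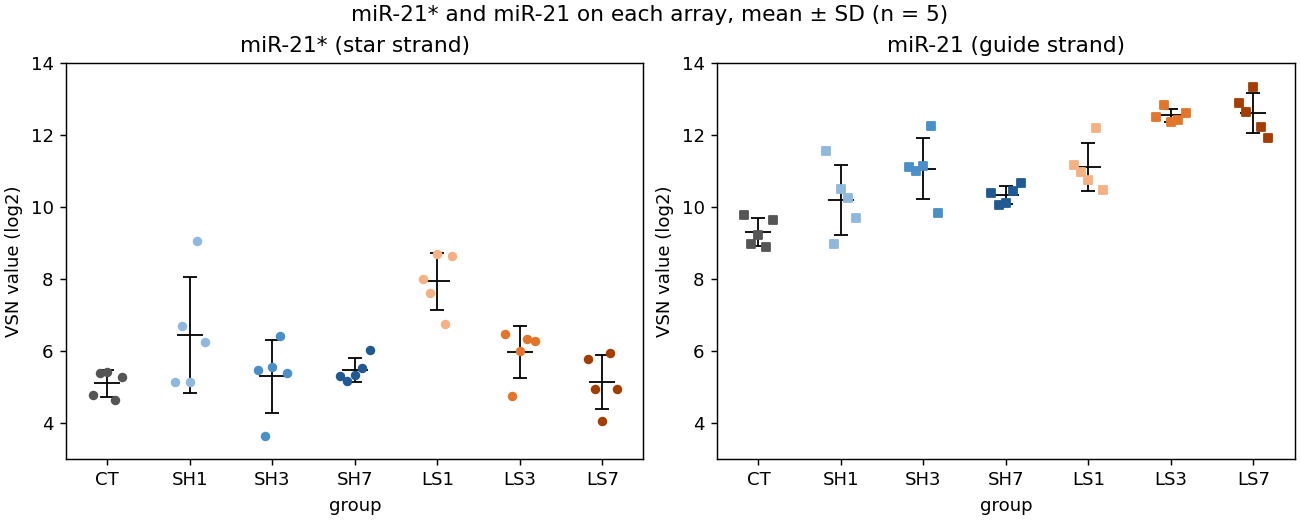
Values (y axis, log2 VSN scale) of miR-21\* and of its guide miR-21 on each array by group (x axis), with mean and SD (n = 5). The star sits between 6.74 and 8.68 in LS1 and between 4.06 and 5.95 in LS7, while the guide sits between 11.92 and 13.33 in LS7.

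The guide miR-21 followed another course. It read 9.78, 8.98, 9.22, 8.88 and 9.64 in CT, 11.16, 10.98, 10.75, 12.19 and 10.47 in LS1, 12.51, 12.84, 12.35, 12.42 and 12.60 in LS3 and 12.90, 12.64, 13.33, 12.22 and 11.92 in LS7. The guide was higher than CT by 1.81 in LS1 (adjusted p 0.0023), 3.25 in LS3 (adjusted p 8.9e-06) and 3.30 in LS7 (adjusted p 4.5e-05), and higher than SH7 by 2.26 in LS7 (adjusted p 0.00019). Against the sham animals of the same day it was higher by 1.48 in LS3 (adjusted p 0.045), while the difference of 0.92 in LS1 was not called (adjusted p 0.52). The sham groups themselves differed from CT by 0.89 in SH1, 1.77 in SH3 and 1.04 in SH7, none of them called, and single sham animals reached 11.56 in SH1 and 12.24 in SH3. The lowest guide value in any LS group, 10.47, exceeded the highest in CT.

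To set each star beside its guide, the difference star minus guide was taken within each array. On a log scale a factor common to the whole array cancels in it. On the VSN scale it cancels for bright strands but not fully for dim ones. A change of this difference shows that the values of the strands changed unequally, not which of them was constant. With a dim star, part of the change can come from the scale. Over the array 98 such pairs had both strands detected in the study, 34 of them with a member. In LS7 against SH7 the difference was called higher in 37.8% of the 98 pairs and lower in 10.2%, and in 12 (35.3%) and 5 (14.7%) of the 34. These counts moved with the processing: 19 members (48.0% of all pairs) were higher in the deposited values and 20 (53.1%) under the 75th percentile of names detected on all arrays. Under normexp with quantile normalization 2 were higher (7.14%) and 3 lower (9.18%). With scan day as a fixed block 11 were higher (25.5%) and 3 lower (4.08%), and against CT 0 of all 98 pairs were called.

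For miR-21 the star was above background in no LS7 animal, so its differences there were taken with the star at the lowest detected value of each LS7 array. So taken, the difference star minus guide was 3.54-fold lower in LS7 than in SH7, where the star was detected in 2 animals. No LS7 animal overlapped SH7. The difference was 5.60-fold lower in LS7 than in CT, where the star was detected in 3 animals. The limma test was run on the measured values only, and gave adjusted p 0.0021 against SH7 and 0.00043 against CT. As some SH7 and CT values of the star were themselves not above background, these sizes are not strict bounds. In LS3, where the star was detected in 4 animals, the change against CT was -2.37 (SE 0.42, adjusted p 0.0032), and neither LS7 nor LS3 overlapped CT. Against SH3 the difference in LS3 was not called, with a change of -0.80 between overlapping groups (SE 0.53, adjusted p 0.46; interval -1.95 to 0.35), and SH3 against CT had -1.57 (SE 0.45, adjusted p 0.18). In LS1 it was 1.03 (SE 0.58, adjusted p 0.39; interval -0.22 to 2.28), so the strands could not be told to differ there. From LS1 it changed by -3.40 to LS3 (SE 0.63, adjusted p 0.014). It was at least 11.4-fold lower in LS7 than in LS1 (adjusted p 0.00086 on the measured values). In these comparisons the 98 pairs were called lower in 12.2% for LS7 against CT, 2.04% for LS3 against CT, 4.08% for LS3 against LS1 and 13.3% for LS7 against LS1, and higher in 24.5%, 1.02%, 2.04% and 20.4%.

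The other 4 pairs with a lower difference in LS7 than in SH7 were miR-330, miR-872, miR-34c and miR-196a, and the same 4 names with miR-21 were called lower against CT. For miR-330 the star changed by -2.36 and the guide by -0.69 (guide values 6.29, 6.46, 5.40, 6.19 and 5.87 in LS7; 6.17, 6.66, 6.58, 7.00 and 7.21 in SH7), so the difference changed by -1.67 (SE 0.44, adjusted p 0.0089). For miR-872 the change of the difference was -1.30 (SE 0.51, adjusted p 0.042), with the guide detected in only 2 of 5 LS7 animals, and the call was lost in 6 of the 10 fits without 1 array. For miR-34c, a p53 target with roles in ciliated cells, it was -1.19 (SE 0.45, adjusted p 0.040). For miR-196a, encoded in the Hox clusters, the difference was called lower (adjusted p 0.028) with no size given, as the star was detected in 0 of 5 LS7 and 1 of 5 SH7 animals and the guide in 2 of 5 LS7 animals, and its direction turned under the 75th percentile of names detected on all arrays. The 5 calls became 2 to 3 without LS7 replicate 3 or 5 or without SH7 replicate 1, 2, 3 or 4. Of these 5 pairs only miR-872 had its star detected in at least 3 animals of both groups.

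In the 12 pairs with a higher difference the guide changed by -2.54 to -1.19 and the star by -1.14 to 0.34. For let-7e the guide read 11.11, 10.23, 9.38, 9.79 and 8.15 in LS7 and 11.60, 12.01, 11.86, 12.27 and 12.20 in SH7, a change of -2.26, while the star read 5.74, 5.68, 5.69, 5.46 and 5.89 in LS7 and 5.43, 5.87, 5.79, 6.10 and 6.25 in SH7. The difference changed by 2.06 (SE 0.47, adjusted p 0.0036), but the star was detected in only 1 LS7 animal. miR-30c-2\* (4.98, 4.08, 5.74, 4.62 and 5.26 in LS7; 4.76, 4.93, 5.13, 5.08 and 5.04 in SH7) was detected in 1 animal of each group, and its difference changed by 2.10 (SE 0.46, adjusted p 0.0030). Only 2 of the 12 pairs, miR-29a and miR-99b, had their star detected in at least 3 animals of both groups. The part of the detection limit in the 12 pairs was not tested.

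miR-29a, a repressor of collagen genes, is one of these 2. Its star read 6.58, 6.49, 6.40, 6.64 and 7.04 in LS7 and 6.37, 7.07, 6.79, 7.27 and 7.06 in SH7, and its guide 12.65, 11.24, 12.83, 12.09 and 10.78 in LS7 and 13.06, 13.75, 13.77, 14.14 and 13.98 in SH7. The star overlapped between groups and the guide did not, and the difference changed by 1.54 (SE 0.45, adjusted p 0.015). For miR-99b the star read 7.11, 6.04, 6.01, 6.55 and 6.71 in LS7 and 6.71, 6.73, 6.59, 7.15 and 6.92 in SH7, and the guide 9.62, 8.46, 8.72, 8.78 and 7.05 in LS7 and 9.60, 10.29, 10.39, 10.66 and 10.49 in SH7. The difference changed by 1.43 (SE 0.44, adjusted p 0.016). The lowest detected values on LS7 replicates 1 to 5 were 5.82, 6.49, 4.90, 6.05 and 6.28. Both stars thus lay near the limit on several LS7 arrays, and miR-99b\* lay under it in replicate 2.

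Both strands of other pairs moved by similar amounts, within wide intervals. The change of star minus guide in LS7 against SH7 was -0.33 for miR-138 (95% interval -1.05 to 0.39), -0.21 for miR-136 (-1.01 to 0.60), -0.06 for miR-24-1 (-0.81 to 0.69) and 0.54 for miR-338 (-0.19 to 1.27). For miR-204 it was -0.49 (adjusted p 0.39) against SH7 but -2.09 from LS1 to LS7 (SE 0.48, adjusted p 0.0055), where the star changed by -2.77 and the guide by -0.68. In LS1 against CT 5.10% of the 98 pairs were called higher and 3.06% lower, and 1 of the 34, miR-136, was lower (-0.89, SE 0.23, adjusted p 0.032). That call was lost in 7 of the 10 fits without 1 array. In LS3 against SH3 1.02% of pairs were higher and 0% lower, with 0 members among them, and in LS1 against SH1 0 pairs were called by limma, where 6 were higher and 2 lower at an unadjusted p under 0.05.

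**Figure D5:**
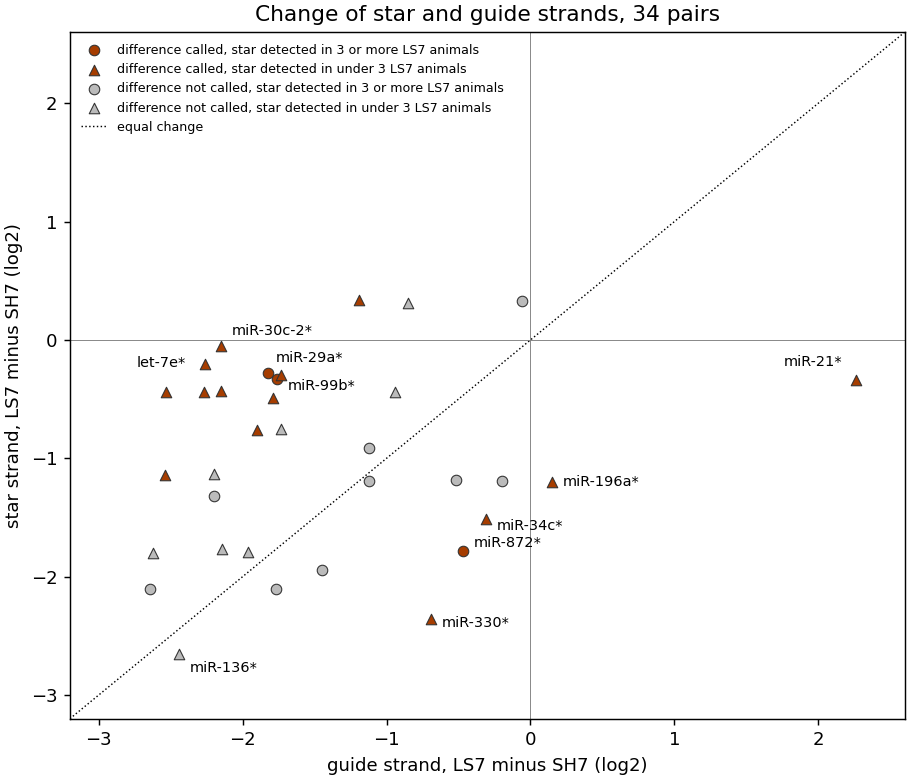
Change of the star (y axis) against the change of its guide (x axis) between LS7 and SH7, both log2 VSN values, 1 point per pair for the 34 pairs with both strands detected in the study. miR-21 lies apart, with the guide at 2.26 and the star at -0.34, and most other guides lie below 0.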

How the data were processed

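RNA from 35 rat spinal cords was labelled with Hy3 and hybridized by the authors to Exiqon miRCURY LNA arrays. The scanner intensity values, deposited without normalization per the file headers, are the median of each spot and of its local background in the green and red channels, and what the red channel held is not given in the sources used here. The quality score of each spot was set by the authors in GenePix, and spots scored bad were left out. The deposited table holds log2 values that the authors normalized by VSN, 1 per spot, and it was used as an alternative, since it follows the green signal without background subtraction.

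Green median minus background median was normalized by an own implementation of VSN (0.9 of the data kept, 7 iterations) over the microRNA spots of all 35 arrays, and the spots of a name were summarised by their median. Of 1766 names, 812 were detected and 714 passed the variation filter (interquartile range above 0.5). Groups were compared by limma 3.58.1 (R 4.3.3) on the 10 arrays of each pair of groups, with Benjamini-Hochberg adjustment over all names tested, for 12 comparisons. Star minus guide differences were tested in the same way over 98 pairs, and differences of the injury effect between days in 1 fit over 7 groups. Other steps used Python 3.11.15, numpy 2.4.6, pandas 2.3.3 and scipy 1.17.1. The VSN fit and the limma fit of 2 groups were tested on simulated data, and the other steps were not. The number of arrays limits the precision.

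Values of every sample were shown for the 8 members with the highest mean in CT, for miR-21\*, and for the 3 members, and the 3 star minus guide differences, with the lowest adjusted p among those called in each comparison of an injured group with SH or CT, 15 members in all; miR-29a\*, miR-99b\*, miR-296\* and other single members were named after their values were seen. The members and the lists were chosen with earlier results of these data known. Alternatives were 7 other scalings or summaries, a detection limit of 3 SD, no variation filter, 1 fit over all groups, the scan day and the replicate number as blocks, and leaving out each array. Cell type markers were guides written down as a list: miR-223, miR-142, miR-155, miR-146a and miR-150 for immune cells, miR-451, miR-144 and miR-486 for erythrocytes, and miR-1, miR-133 and miR-206 for muscle, beside the neuronal and oligodendrocyte guides.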

Additional observations from a re-analysis of the deposited data

Results flagged for a closer look

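In 105 groups of 5 animals (15 members in 7 groups), the gap of the highest or lowest animal to its neighbour exceeded 0.71 of the range of the group in 8; by chance about 0.05 of such groups are expected to do so. LS3 replicate 2 was the lowest animal in 6 of these 8: miR-140\* at 7.46 (next 9.69), miR-338\* at 7.03 (next 8.36), miR-24-1\* at 7.10 (next 8.70), miR-136\* at 6.03 (next 7.66), miR-21\* at 4.73 (next 5.99) and miR-196a\* at 1.51 (next 4.30), the last 2 below its detection limit. This array also lay with LS7 replicates 2 to 5 on the first principal component. The others were miR-138\* in SH7 replicate 1, which was low at 9.19 (next 9.79), and miR-30e\* in LS7 replicate 1, which was high at 8.25 (next 7.32).

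For 11 of the 15 members the injury effect at 7 dpo (LS7 minus SH7) was lower than that at 1 dpo (LS1 minus SH1) by the interaction term of limma, in which 57.6% of all names were also called lower. The difference of the effects was -2.82 for miR-136\* (SE 0.52, adjusted p 0.00038), -2.61 for miR-204\* (adjusted p 0.0013), -2.47 for miR-330\* (adjusted p 0.00048), -2.23 for miR-338\* (adjusted p 0.00047) and -2.05 for both miR-138\* (adjusted p 0.0028) and miR-872\* (adjusted p 0.0027). It was -1.43 for miR-140\* (adjusted p 0.017), -1.34 for miR-30e\* (adjusted p 0.0050) and -1.19 for miR-24-1\* (adjusted p 0.028). The measured values gave -1.90 for miR-379\* (adjusted p 0.00077) and -1.82 for miR-21\* (adjusted p 0.035). Both stars were detected in 0 LS7 animals, so these sizes rest in part on values under the limit. The value of miR-21\* also rests on LS1 minus SH1, which was 1.48 with SH1 replicate 4 and 2.13 without it.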

How the results depend on the processing

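Counts of star strands called (higher and lower; pairs are star minus guide differences) changed most with the scaling, whose variation filter acts on its own values, so normexp with quantile normalization tested 2 members, the red ratio 2, the deposited values 8, the 75th percentile of all names 26 and spike-in scaling 35, against 24. The cause of the other shifts was not tested. Counts below without a share of all names beside them are descriptions, and were not set against the array as a whole. The 35 star strands detected became 27 at 3 SD and 24 when all 5 animals were required. Dim members, near the detection limit in LS7, limit the comparisons at 7 dpo.

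With the 75th percentile of all names, LS3-SH3 had 1 lower, LS7-SH7 13 and 10, LS7-CT 13 and 6, LS3-LS1 12 higher (26.8% of all names), and LS7-LS1 13 and 5. With the 75th percentile of names detected on all arrays, LS3-SH3 had 0 lower, LS7-SH7 22 and 0 and LS7-CT 20 and 0. LS3-LS1 had 0 lower, LS7-LS3 18 higher and LS7-LS1 19 and 0. All names rose under this scaling, with median changes of 1.62 in LS7-SH7, 1.38 in LS7-CT, 1.3 in LS7-LS3 and 1.3 in LS7-LS1. The pairs had 3 higher in LS3-SH3, 20 in LS7-SH7, 1 in LS3-CT, 15 in LS7-CT and 17 in LS7-LS1, and 2 lower in SH3-CT. Spike-in scaling gave 35 of 35 higher in LS1-SH1 (99.9% of all names; median change 1.69 over all names and 1.68 over members), 0 lower in LS3-SH3, 12 and 4 in LS7-SH7, 19 higher in LS1-CT (65.5% of all names), 1 lower in LS3-CT, 17 and 3 in LS7-CT, 21 lower in LS3-LS1 (70.8%), 19 higher in LS7-LS3 (46.1%) and 0 higher in LS7-LS1. The deposited values gave 1 lower in LS3-SH3, 0 and 5 in LS7-SH7, 1 lower in LS3-CT, 5 lower in LS7-CT and 0 and 5 in LS7-LS1, and pairs higher in 3 (LS3-SH3), 19 (LS7-SH7), 1 (LS1-CT), 2 (LS3-CT), 14 (LS7-CT) and 3 (LS7-LS1). Normexp with quantile normalization gave 1 lower in LS3-SH3, 0 and 2 in LS7-SH7, 0 higher in LS1-CT, where miR-21\* was not among the 2 tested, 1 lower in LS3-CT and in LS7-CT, 0 lower in LS3-LS1 and 0 and 0 in LS7-LS1, with pairs 2 higher in LS3-SH3, 2 and 3 in LS7-SH7, 2 and 3 in LS3-CT, 0 and 2 in LS7-CT, 2 lower in LS3-LS1 and 1 higher in LS7-LS1. The ratio to the red channel gave 1 and 1 in LS3-SH3, 0 and 1 in LS7-SH7, 1 and 1 in LS3-CT, 1 lower in LS7-CT and 0 and 1 in LS7-LS1. The mean of spots gave 0 higher in LS7-SH7, and a limit of 3 SD 0 higher there and 1 lower in LS3-SH3.

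One fit over 7 groups gave 6 lower in LS3-SH3, 1 in LS3-CT, 2 in LS3-LS1 and 6 in LS7-LS3 and 2 higher in LS7-LS1, with pairs 0 lower in LS1-CT and LS3-CT, 2 lower in LS3-LS1, 7 and 2 in LS7-LS3 and 13 higher in LS7-LS1. Scan day as a fixed block gave 0 lower in LS3-SH3, 0 and 5 in LS7-SH7, 4 and 7 in LS1-CT (35.7% and 16.2% of all names, on 1 shared day), 5 lower in LS7-CT and 0 and 0 in LS7-LS1, with pairs 3 lower in LS7-SH7, 12 and 0 in LS1-CT, 0 and 0 in LS7-CT and 0 and 1 in LS7-LS1. It could not be fitted for LS1-SH1, SH3-CT and LS3-LS1, which share no scan day. As a random block it gave 7 lower in LS3-SH3, 0 higher in LS7-SH7, 2 lower in LS3-CT and LS3-LS1 and 6 in LS7-LS3. Without LS7 replicate 4 and SH7 replicate 1, LS7-SH7 had 0 higher, with pairs 3 lower there and 1 higher in LS7-LS1.

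The replicate numbers do not pair the animals (correlations of same-numbered deviations from -0.66 to 0.66). With the replicate block LS3-SH3 had 5 lower, LS7-SH7 0 higher and 15 lower, and the pairs 0 lower in LS1-CT and LS3-LS1; it ended 2 of the calls of named members, and 42 stayed on their side.

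Leaving out each array gave 0 to 1 higher in LS1-SH1, LS3-CT and LS7-SH7, 0 to 2 in LS7-LS1, and lower counts of 0 to 1 in LS3-CT, 0 to 2 in LS3-LS1, 0 to 3 in LS3-SH3 and 0 to 12 in LS7-LS3 (the 12 beside 47.3% of all names). Pairs ranged from 0 to 1 (higher, LS1-CT and LS3-CT; lower, LS1-CT, SH3-CT and SH7-CT), 2 to 11 (higher, LS7-CT), 1 to 10 (higher, LS7-LS1), 0 to 5 (both ways, LS7-LS3) and 2 to 6 (lower, LS7-SH7).

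Of the single members, these turned sign. Under the 75th percentile of detected names LS7-SH7 became 0.60 for miR-140\*, 0.23 for miR-204\*, 0.69 for miR-24-1\*, 0.56 for miR-30e\*, 0.63 for miR-872\*, 1.68 for miR-181a\*, 2.25 for miR-379\*, 0.55 for miR-330\* and 2.44 for miR-196a\*, and 0.20 for miR-196a star minus guide; LS7-CT became 0.54 for miR-30e\*, 0.53 for miR-872\*, 1.34 for miR-181a\*, 1.99 for miR-379\*, 0.41 for miR-330\* and 2.02 for miR-196a\*; miR-379\* in LS3-SH3 became 0.63 and miR-21\* in LS7-LS1 0.03. Under the 75th percentile of all names and spike-in scaling, miR-181a\* became 0.07 and 0.42 (LS7-CT 0.06 and 0.60), miR-379\* 0.65 and 1.00 (LS7-CT 0.70 and 1.25; LS3-SH3 0.23 and 0.23) and miR-196a\* 0.84 and 1.19 (LS7-CT 0.74 and 1.28). Under normexp and the red ratio, miR-140\* became 0.27 and 0.41, miR-24-1\* 0.12 and 0.17 and miR-30e\* 0.12 and 0.13 (LS7-CT 0.17 and 0.11).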
